A study of Homo sapiens with 60 samples.

Results

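The mitochondrially encoded genes are the 37 Ensembl gene identifiers whose symbol begins with MT-, of 60675 identifiers in the deposited table. They comprise 13 mRNAs, 2 rRNAs and 22 tRNAs, and they were chosen by symbol, not by any measured value. RNA was sequenced from A549, an established line of human lung carcinoma cells, and the question put to these genes was how their level varied with extract, with dose and with library set. All groups were taken at 24 h, and the labels do not say whether libraries of a group came from separate cultures, so a p-value here measures only how these libraries spread, and that spread may be technical.

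The control group was vehicle (3 libraries, 0.1% DMSO in the labels but 2% in the series design text). Each of 8 herbal extracts was given at 3 doses, called high, medium and low, and no DMSO share is recorded for them. Library names carry a set number. Set C1 held vehicle alone. Set 8 held the water extracts Yijin-tang (3 libraries at each dose) and Soshiho-tang (2 at each dose). Set 9 held the ethanol extracts Liriopis seu Ophiopogonis Tuber and Schisandrae Fructus, and set 10 held the ethanol extracts Longan Arillus and Zizyphi Semen, all with 3 libraries at each dose. These 6 extracts were dosed at 500, 100 and 20 µg/mL. Set 11 held 2 ethanol extracts with a single library at each dose: Polygalae Radix at 380, 76 and 15.2 µg/mL, and at 370, 74 and 14.8 µg/mL Aucklandiae Radix. Nothing in the labels explains the set number. Because vehicle was only in set C1, extract and set cannot be told apart in any contrast with vehicle, whereas doses of 1 extract lie within 1 set.

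Mitochondrial DNA is a small circle that is transcribed from both strands into long RNAs holding many genes. Excision of the tRNAs that lie between most of the other genes releases the mRNAs and rRNAs, and most of the mRNAs then receive a short poly(A) tail. The mRNAs encode core subunits of respiratory complexes I, III and IV and of the ATP synthase (complex V), all other subunits being made from nuclear genes, and the rRNAs and tRNAs serve mitochondrial translation.

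The 3′ ends of the mRNAs are shown because the transcripts depend on the tail to different degrees. The last 15 bases of each gene follow, read 5′ to 3′ along its own strand from the GENCODE 29 transcripts (GRCh38), with the letters of the stop codon that the DNA encodes in capitals.
MT-ND1: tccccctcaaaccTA
MT-ND2: tactaataatcttaT
MT-CO3: attgatgagggtctT
MT-ND3: tagactgaaccgaaT
MT-ND4: ccgggttttcctctT
MT-CYB: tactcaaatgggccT
MT-CO1: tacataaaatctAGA
MT-CO2: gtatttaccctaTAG
MT-ATP8: cccccacaatccTAG
MT-ATP6: cacgacaacacaTAA
MT-ND4L: ctactccaatgcTAA
MT-ND5: ctcctaatcacaTAA
MT-ND6: gctcgggggaatAGG
In 6 mRNAs (MT-ND1, MT-ND2, MT-CO3, MT-ND3, MT-ND4 and MT-CYB) the gene ends within the stop codon, which the poly(A) tail is known to complete. The other 7 carry all letters of a stop within the annotated gene, as TAA, TAG, AGA or AGG. The last base of the MT-ATP6 stop (chrM:9207) is also the first base of MT-CO3, so the separate MT-ATP6 mRNA may lack it. MT-ND6 is the only mRNA on the minus strand, and its human transcript is known to lack a poly(A) tail. Its sequence holds 35.62% G and 7.05% C, whereas the other mRNAs hold 6.28 to 16.21% G and 29.48 to 35.98% C.

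Reads of 2 gene pairs cannot be assigned to 1 gene with certainty, because the genes overlap on the same strand and are known to share an RNA. The overlaps, in capitals within 12 flanking bases on each side, are shown from the plus strand of GRCh38.
MT-ATP8 and MT-ATP6, chrM:8515-8584: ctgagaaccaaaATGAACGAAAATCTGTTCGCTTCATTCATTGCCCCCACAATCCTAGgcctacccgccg
MT-ND4L and MT-ND4, chrM:10748-10778: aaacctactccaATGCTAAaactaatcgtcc
The overlaps are 46 and 7 bases long, and each begins with the ATG of the downstream gene and ends with the stop codon of the upstream gene. Counts of MT-ATP8 (chrM:8366-8572) and MT-ND4L (chrM:10470-10766), the shorter gene of each pair, are therefore given as uncertain. MT-ATP6 and MT-CO3 share only the base chrM:9207 and are not printed as a pair.

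Depth was 18.003 to 33.832 M counts per library, and the mitochondrially encoded genes took 1.697 to 4.862 M of them. The third library of Longan Arillus at the low dose and the third of Soshiho-tang at the medium dose (replicate 3 in both) stood apart from the other 58. The log2 level of a nuclear gene relative to its median over libraries had a slope of -0.43 and -0.36 per doubling of gene length in them, against -0.09 to 0.05 in the others (13801 genes). Because all replicated groups share an estimate of the spread, these libraries touch every test, and results are given with all 54 replicated libraries and with the 52 left without them. The common dispersion was 0.0173 over 54 and 0.00244 over 52 libraries. A list of 10 epithelial and A549 genes (among them EPCAM, KRT8, KRT18 and ALDH1A1) summed to 15870 to 18060 CPM (a gene's counts per 1 M counts, TMM-scaled) in sets C1, 8, 9 and 10 without the 2 libraries, and to 3027 to 16340 CPM in set 11. Leukocyte markers summed to 5.69 to 35.6 CPM over all libraries, and all 6 endothelial markers were under 1 CPM in every library.

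All 13 mRNAs and both rRNAs had at least 5911 counts in every library, whereas the tRNAs were near the limit of detection. Of the 22 tRNAs, 7 were at 0 in all 60 libraries, and the 22 together summed to 12 to 231 counts per library. MT-TQ, MT-TA and MT-TS1, the tRNAs for glutamine, alanine and serine, passed the filter on low counts with medians of 10, 13 and 3 counts. In all, 18 of the 37 genes were tested, 17 without the 2 libraries, where MT-TS1 no longer passed. MT-TS1 thus passed only through libraries that stood apart. Its calls with all libraries rest on that filter and are no evidence of a change.

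In vehicle, levels were compared between genes per kb of gene length, since longer genes collect more counts. The 16S rRNA MT-RNR2 was the highest at 17490 ± 267 CPM per kb (SD, n = 3), while the 12S rRNA MT-RNR1 measured 1679 ± 35.5 CPM per kb. Both rRNAs come from the same stretch of DNA (chrM:648-1601 and chrM:1671-3229). The complex IV mRNAs led the mRNAs, with MT-CO3 at 15180 ± 446, MT-CO1 at 13930 ± 450 and MT-CO2 at 13210 ± 375 CPM per kb. MT-CO1 and MT-CO2 did not differ beyond their spread. ATP synthase subunit MT-ATP6 followed at 10650 ± 598 CPM per kb, its upstream partner MT-ATP8 measured 5104 ± 1030 CPM per kb, and the complex III subunit MT-CYB measured 4847 ± 256 CPM per kb. Of the complex I mRNAs, MT-ND4 was the highest at 8558 ± 356 CPM per kb and MT-ND6 the lowest of all mRNAs at 1222 ± 72.1 CPM per kb. Between them lay MT-ND1 at 6584 ± 558, MT-ND4L at 5150 ± 144, MT-ND2 at 5106 ± 171, MT-ND3 at 3142 ± 208 and MT-ND5 at 2315 ± 83.6 CPM per kb. The ranges of MT-ND4L, MT-ND2, MT-ATP8 and MT-CYB overlapped from each gene to the next. Apart from these and the step from MT-CO1 to MT-CO2, neighbours in the order of mRNAs did not overlap over the 3 libraries. The libraries were prepared as mRNA libraries and the way mRNA was selected is not given in the sources used here, so an RNA with a short or no tail may be counted below its true level.

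**Figure D1:**
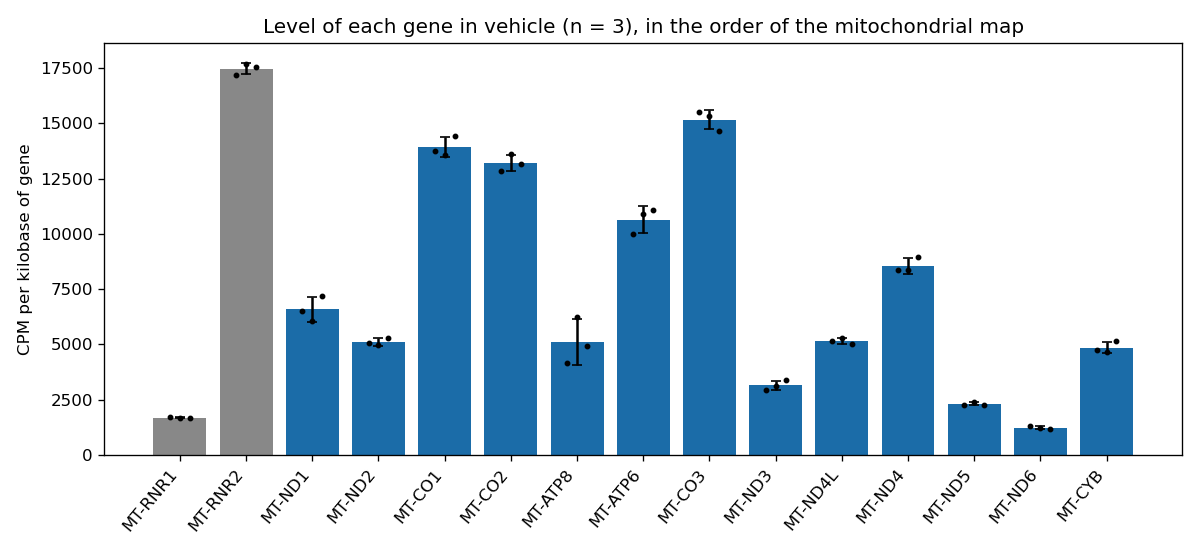
Level of the 13 mitochondrial mRNAs and 2 rRNAs (grey) in vehicle, as CPM per kb of gene length; bars are means, points are the 3 libraries and error bars are SDs. MT-RNR2 (17490) and MT-CO3 (15180) are the highest and MT-ND6 (1222) the lowest.

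The 13 mRNAs together took 8.60, 8.63 and 8.88% of all counts in the 3 vehicle libraries, and the share was higher in most extract libraries. By set, the mean share was 8.70% ± 0.152 in C1 (SD, n = 3), 9.59% ± 1.01 in set 8 (n = 15), 10.0% ± 0.931 in set 9 (n = 18), 12.1% ± 1.78 in set 10 (n = 18) and 12.4% ± 0.501 in set 11 (n = 6). Set 8 without its library that stood apart measured 9.75% ± 0.822, and set 10 without its own measured 12.4% ± 1.09. In set 10 the share then ran from 10.6 to 15.1%, above all of vehicle. Ranges of sets 8 (8.06 to 10.9%) and 9 (8.88 to 12.25%) overlapped each other. In bulk RNA, a share of counts cannot tell more mitochondrial RNA in a cell from less nuclear RNA in a cell. It also carries no measure of cell number.

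The direction of the mean share with dose differed between extracts. The means for Zizyphi Semen were 12.3, 12.8 and 13.1% at the low, medium and high dose, whereas those for Schisandrae Fructus were 10.5, 10.2 and 9.86% and those for Yijin-tang 9.74, 9.21 and 9.09%. Zizyphi Semen libraries measured 11.2, 12.8 and 12.7% at the low dose (replicates 1, 2 and 3), 12.5, 12.7 and 13.1% at the medium dose and 13.5, 13.5 and 12.4% at the high dose. Its low range overlapped both the medium and the high range. Liriopis seu Ophiopogonis Tuber libraries measured 9.24, 9.05 and 11.0% at the low dose, 8.92, 9.17 and 8.88% at the medium dose and 10.6, 9.78 and 12.25% at the high dose, so the medium dose was the lowest on average. The high dose exceeded the low dose in each of its 3 same-numbered pairs, by 1.38, 0.728 and 1.24 percentage points, yet the ranges overlapped. Schisandrae Fructus libraries measured 11.0, 9.84 and 10.7% at the low dose, 9.39, 10.2 and 11.1% at the medium dose and 9.65, 10.5 and 9.48% at the high dose, and both higher doses overlapped the low dose.

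The water extracts of set 8 and Longan Arillus of set 10 are given next. Yijin-tang libraries measured 9.72, 9.66 and 9.85% at the low dose, 9.07, 9.54 and 9.01% at the medium dose and 10.4, 8.77 and 8.06% at the high dose. The medium libraries all lay below the low ones, whereas the high libraries overlapped them with a wider spread. Soshiho-tang libraries measured 10.9 and 10.1% at the low dose and 10.8 and 10.6% at the high dose, and its medium dose measured 10.0% and, in the library that stood apart, 7.32%. Longan Arillus libraries measured 12.2, 12.9 and, in the library that stood apart, 6.39% at the low dose, 10.6, 12.2 and 15.1% at the medium dose and 10.8, 11.97 and 11.3% at the high dose. With the library that stood apart, the low range overlapped both higher doses, and without it the high libraries all lay below the low ones. Its mean share at the high dose was thus above the low dose with that library and below it without (log2 ratio of means -0.14). Zizyphi Semen, Schisandrae Fructus and Yijin-tang each had pairs of the same number that moved in opposite directions between low and high.

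Of the variation in the log2 mRNA share over the 54 libraries, 40.71% lay between sets, 20.63% between groups of a set and 38.66% within groups. Over 52 libraries the parts were 66.05, 14.75 and 19.2%. Set and extract are nested, so the part between sets includes any difference between the extracts of different sets.

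**Figure D2:**
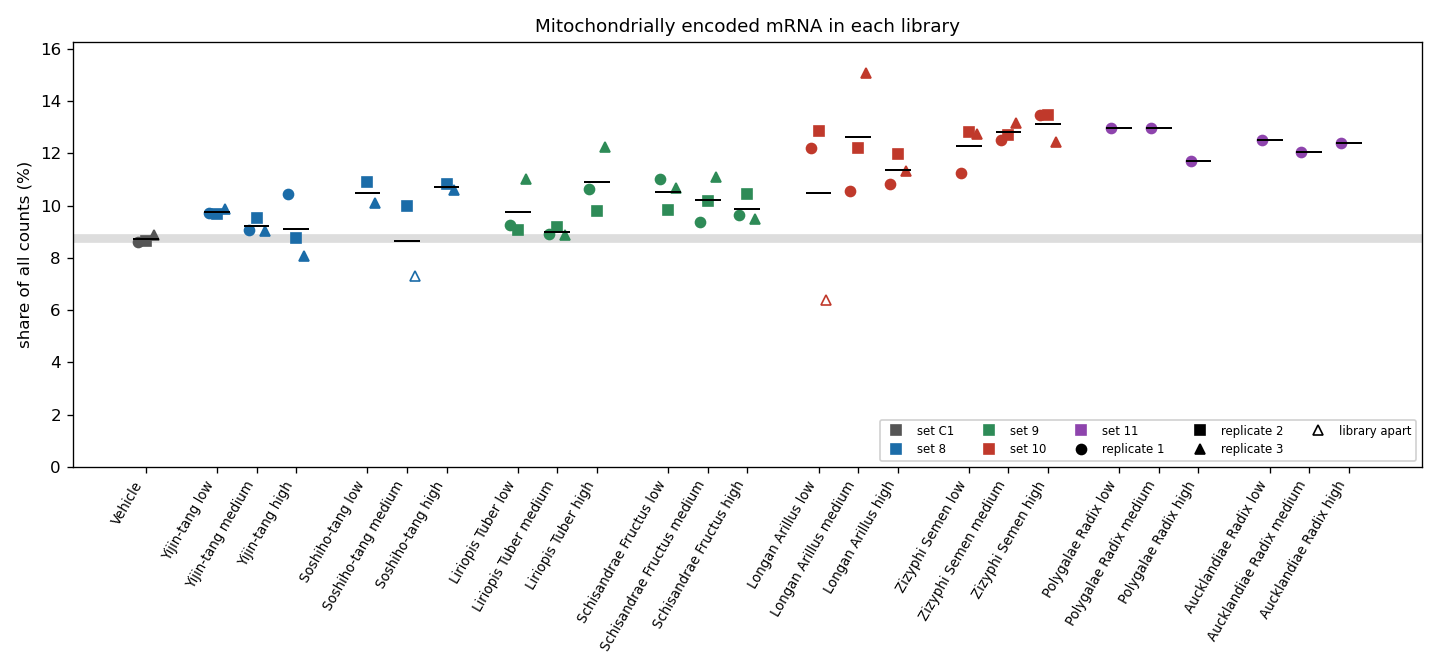
Share of all counts taken by the 13 mitochondrial mRNAs (%) in each of the 60 libraries, by extract and dose; colours mark sets, marker shapes replicate numbers, bars group means, open markers the 2 libraries that stand apart, and the grey band the vehicle range (8.60 to 8.88%). Without the open markers, group means are 11.4% or more in sets 10 and 11 and 10.9% or less in sets 8 and 9, while single libraries overlap; Liriopis Tuber stands for Liriopis seu Ophiopogonis Tuber.

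Comparison of the high with the low dose of an extract, inside its set, called few of the genes. A gene was called at an adjusted p under 0.05 (edgeR's quasi-likelihood test, Benjamini-Hochberg adjustment over all 17826 genes tested). For Yijin-tang, 0 of the 18 tested mitochondrially encoded genes were called, beside 0.146% of all genes. At an unadjusted p under 0.05 the count was 0, and DESeq2 also called 0. Its 2 mRNAs with the smallest p, not called, were MT-CO3 at a log2 fold change of -0.12 (SE 0.0848) and MT-CYB at -0.18 (SE 0.142), and 12 of 13 mRNAs had a negative value. For Soshiho-tang, 0 were called beside 1.58% of all genes (0 at unadjusted p under 0.05, 0 by DESeq2). MT-CYB, at 0.29 (SE 0.175), and MT-CO3, at -0.14 (SE 0.104), had its smallest p and opposite signs.

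In set 9, the extracts had opposite signs over the mRNAs. For Liriopis seu Ophiopogonis Tuber, 12 of 13 mRNAs had a positive log2 fold change from low to high dose (median 0.18), but 0 genes were called, as were 0% of all genes (0 at unadjusted p under 0.05, 0 by DESeq2). MT-ND6 at 0.40 (SE 0.199) and MT-ND1 at 0.24 (SE 0.14) had the smallest p. For Schisandrae Fructus, all 13 mRNAs had a negative value (median -0.08) and 0 genes were called, beside 0.00561% of all genes. Its MT-ND1 measured -0.22 (SE 0.14) and MT-ND2 -0.24 (SE 0.19), neither called. DESeq2 called 1 gene in Schisandrae Fructus, the edgeR count at an unadjusted p under 0.05 was 1, and 1 was called without the 2 libraries (beside 1.54% of all genes): the 12S rRNA MT-RNR1, described further on.

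In set 10, all 13 mRNAs had positive log2 fold changes from the low to the high dose of Zizyphi Semen (0.01 to 0.33, median 0.11), and 0 were called, beside 0.028% of all genes (0 at unadjusted p under 0.05, 0 by DESeq2). The smallest p belonged to MT-ND2 at 0.33 (SE 0.19) and MT-CO3 at 0.14 (SE 0.0848). MT-ND2, a core membrane subunit of complex I, measured 6899, 7423 and 8439 CPM at the low and 10490, 9706 and 8372 CPM at the high dose. The groups overlapped by 1 library each. For Longan Arillus, 4 genes were called lower at the high dose, beside 15% of all genes called lower: MT-TS1 at -2.47 (SE 0.811, adjusted p = 0.0316), MT-ND3 at -0.93 (SE 0.237, adjusted p = 0.0105), MT-ND6 at -0.73 (SE 0.2, adjusted p = 0.0139) and MT-RNR1 at -0.39 (SE 0.0865, adjusted p = 0.00712). In 52 libraries 0 were called (edgeR, with 4 by DESeq2 over all libraries), beside 0.0878% of all genes, and all 13 mRNAs had a negative value (median -0.16). MT-ND3 then measured -0.16 (SE 0.152, adjusted p = 0.757). MT-TS1 did not pass the filter on low counts in 52 libraries and was not tested there. Its call thus has no counterpart and, given that filter, is no evidence of a change with dose. Leaving out Longan Arillus high replicate 1 also left 0 calls.

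At the medium dose, 0 genes were called against the low dose in Yijin-tang, Liriopis seu Ophiopogonis Tuber, Schisandrae Fructus and Zizyphi Semen (0 at unadjusted p under 0.05 in each, 0 by DESeq2 in each), where 0% of all genes were called. In Soshiho-tang 0 were called (1 at unadjusted p under 0.05, 0 by DESeq2) beside 0.00561% of all genes, and 4 were called when medium replicate 2 was left out, which leaves only the library that stood apart. In Longan Arillus 4 were called lower beside 14.7% of all genes: MT-TS1 at -2.88 (SE 0.852), MT-TQ at -1.997 (SE 0.62), MT-ND3 at -0.81 (SE 0.236) and MT-RNR1 at -0.27 (SE 0.0864). In 52 libraries 0 were called, as were 0% of all genes, MT-TQ turned positive at 0.57, and MT-TS1 was not tested. The count was 0 to 11 with single libraries left out, at 11 without low replicate 1 or 2, at 1 without medium replicate 2 and at 0 without medium replicate 1 or low replicate 3.

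The dose effect was also compared between the extracts of a set. The difference in log2 fold change from low to high called 0 genes between Yijin-tang and Soshiho-tang (0.286% of all genes), 0 between Liriopis seu Ophiopogonis Tuber and Schisandrae Fructus (0% of all genes) and 0 between Longan Arillus and Zizyphi Semen (0.0112% of all genes). At unadjusted p under 0.05 the counts were 1, 2 and 3, and DESeq2 called 0 in each. Without the 2 libraries, 1 gene differed between Liriopis seu Ophiopogonis Tuber and Schisandrae Fructus, beside 0.318% of all genes: MT-RNR1 (difference 0.51, SE 0.104, adjusted p = 0.0174).

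Against vehicle, the low dose already showed higher values, most in set 10. These contrasts share the 3 vehicle libraries, and the median log2 fold change of the 13 mRNAs was 0.14 for Yijin-tang, 0.28 for Soshiho-tang, 0.14 for Liriopis seu Ophiopogonis Tuber, 0.30 for Schisandrae Fructus, 0.40 for Longan Arillus and 0.55 for Zizyphi Semen. The median over all tested genes was within 0.031 of 0 in every contrast. For Zizyphi Semen, all 13 mRNAs had a positive value (0.17 to 0.68) and 8 of the 18 tested genes were called higher, beside 3.41% of all genes called higher. The largest were MT-ATP8 at 0.68 (SE 0.198, adjusted p = 0.0321), MT-ND6 at 0.65 (SE 0.2, adjusted p = 0.0424), MT-RNR1 at 0.61 (SE 0.0867, adjusted p = 2.31e-05) and MT-ND1 at 0.60 (SE 0.14, adjusted p = 0.00633).

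MT-ND1, a complex I subunit whose gene follows the rRNAs, measured 6223, 5800 and 6860 CPM in vehicle, against 8681, 9782 and 10150 CPM with low-dose Zizyphi Semen. The lowest treated library lay above the highest vehicle library. MT-CO1, the catalytic subunit of complex IV, measured 21230, 20940 and 22260 CPM in vehicle, against 29240, 33770 and 31770 CPM, also without overlap. MT-ND6, from the other strand, measured 678.7, 642.6 and 603.0 CPM in vehicle, against 935.7, 1022 and 1063 CPM. Each of the 3 genes was thus higher in every treated library than in every vehicle library.

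The count for Zizyphi Semen was 2 to 6 when single libraries were left out (2 without its low replicate 3, 4 without low replicate 2, 4, 5 and 4 without vehicle replicates 1, 2 and 3), and 13 without the 2 libraries that stood apart, beside 12.1% of all genes called higher. The call of MT-ND6 was lost with any 1 of the 6 libraries left out, and that of MT-ATP8 with any but vehicle replicate 2. The genes not called in that fit were MT-ND3, MT-ND4L, MT-TQ and MT-TA. For Longan Arillus, 12 genes were called higher beside 21.5% of all genes called higher. The largest values were those of MT-TS1 at 2.89, MT-TQ at 2.697, MT-TA at 1.24 and MT-ND6 at 1.15, to which the library that stood apart added most. The 52 libraries gave 13 calls, all higher, beside 11.2% of all genes called higher, and the median of the mRNAs was 0.60. MT-TQ and MT-TA were then not called (0.13 and 0.48), and MT-TS1 was not tested.

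In sets 8 and 9, the low dose against vehicle called 0 genes in Yijin-tang (0.146% of all genes), 0 in Soshiho-tang (0.0449%) and 0 in Liriopis seu Ophiopogonis Tuber (0.185%). At an unadjusted p under 0.05 the counts were 1, 6 and 4, and DESeq2 called 0, 1 and 1. In Schisandrae Fructus 1 was called higher, beside 0.146% of all genes called higher: MT-RNR1 at 0.36 (SE 0.0865, adjusted p = 0.0463), a call that was lost when any 1 of the 6 libraries was left out. The 52 libraries gave 1, 1, 1 and 2 calls, beside 3.61, 3.06, 3.89 and 6.35% of all genes. The gene called in all 4 was MT-RNR1, with MT-ND1 (0.44, SE 0.133, adjusted p = 0.041) as the other call in Schisandrae Fructus.

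At the high dose against vehicle, Zizyphi Semen again had the highest median of the mRNAs (0.61). In it, 11 genes were called higher, beside 1.84% of all genes called higher. The largest were MT-ND2 at 0.84 (SE 0.191, adjusted p = 0.0082), MT-ND1 at 0.83 (SE 0.141, adjusted p = 0.000428), MT-ND6 at 0.76 (SE 0.2, adjusted p = 0.0249) and MT-ATP8 at 0.69 (SE 0.198, adjusted p = 0.0401). MT-ND1 measured 11520, 10840 and 11090 CPM at this dose, above all vehicle and all low-dose libraries. The count was 3 to 10 with single libraries left out (3 without high replicate 1, 5 without high replicate 2, 4, 7 and 5 without vehicle replicates 1, 2 and 3) and 13 without the 2 libraries, beside 9.29% of all genes called higher. The call of MT-ATP8 was lost with any library left out but vehicle replicate 2, that of MT-ND6 without any vehicle replicate or high replicate 1, and that of MT-ND2 without high replicate 1.

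The other high doses called fewer genes with all libraries and more without the 2 that stood apart. In Longan Arillus 2 were called higher (0.841% of all genes called higher): MT-ND1 at 0.54 (SE 0.14, adjusted p = 0.0375) and MT-RNR1 at 0.44 (SE 0.0865, adjusted p = 0.00431). In Soshiho-tang 2 were called higher (3.02% of all genes called higher): MT-CYB at 0.57 (SE 0.158, adjusted p = 0.0231) and MT-RNR1 at 0.38 (SE 0.0959, adjusted p = 0.0116). In Liriopis seu Ophiopogonis Tuber 1 was called higher (0.118% of all genes called higher), MT-RNR1 at 0.41 (SE 0.0865, adjusted p = 0.0135). In 52 libraries these counts were 11, 5 and 8, beside 5.55, 10.2 and 2.62% of all genes called higher. In Yijin-tang and Schisandrae Fructus 0 were called in either fit (1 and 2 at unadjusted p under 0.05 with all libraries, 0 by DESeq2), beside 0.544 and 1.02% of all genes with all libraries and 7.17 and 9.15% without the 2.

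Single libraries decided several of these calls. The call in Liriopis seu Ophiopogonis Tuber was lost without its high replicate 3 or any vehicle replicate. Both calls in Soshiho-tang were lost without either of its high libraries, and 1 was lost without any vehicle replicate. In Longan Arillus no call was left without high replicate 2, and 1 was left without high replicate 3 or any vehicle replicate.

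**Figure D3:**
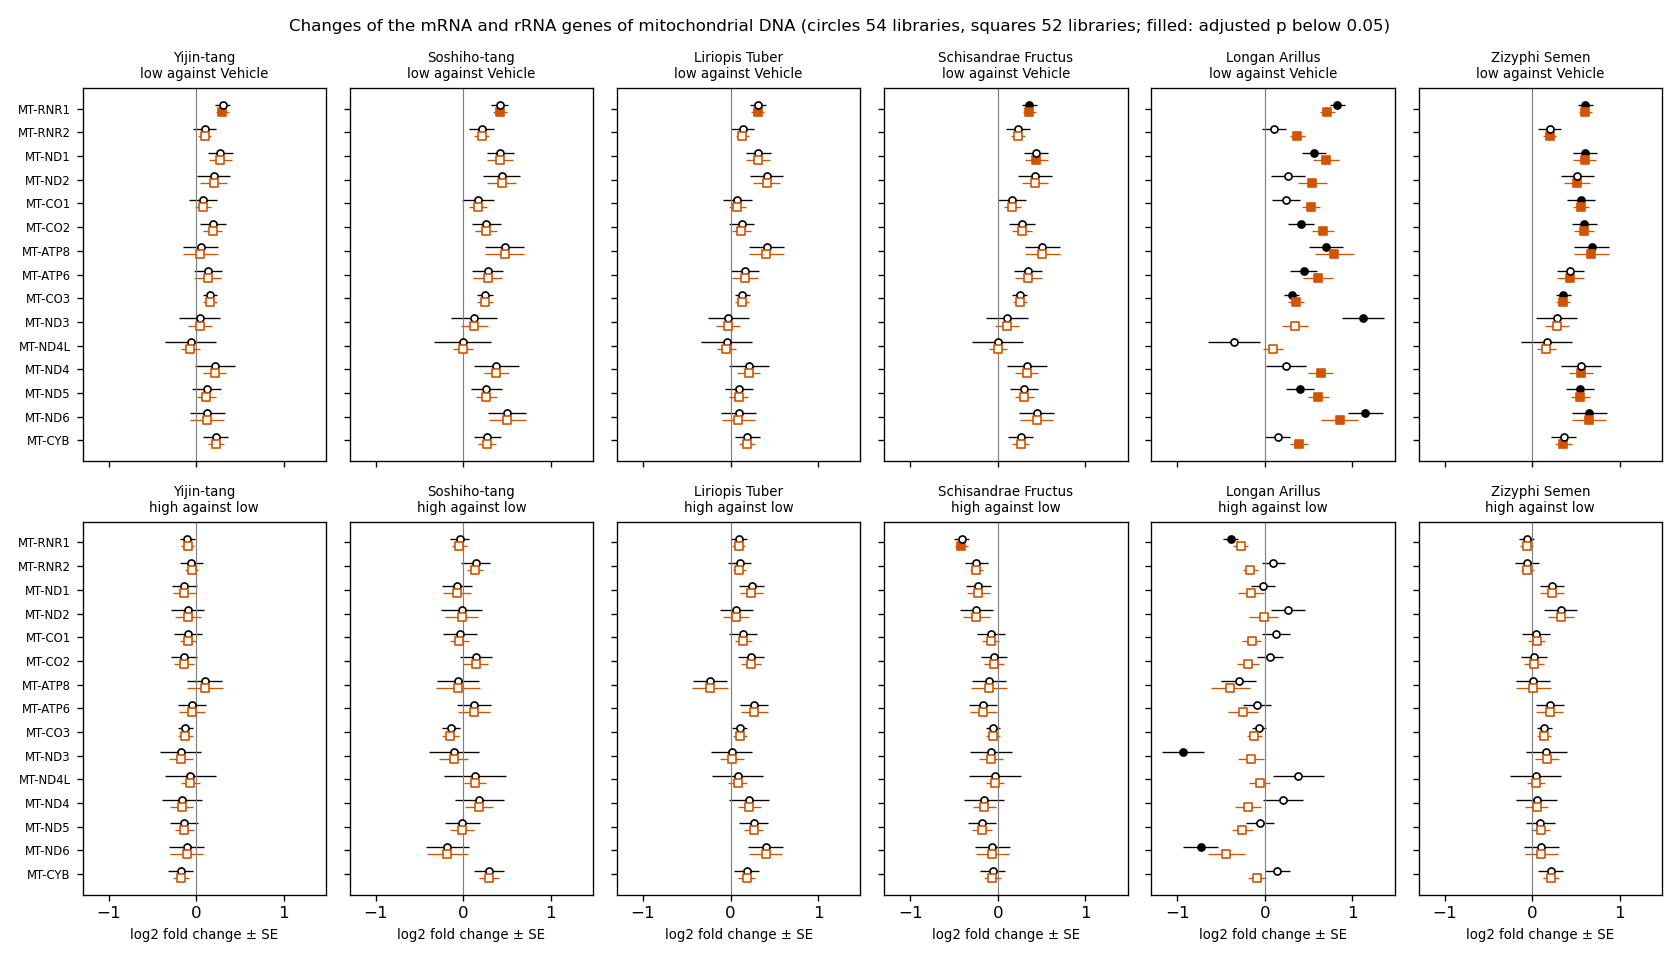
log2 fold change ± SE of the 13 mRNAs and 2 rRNAs for 6 extracts, low dose against vehicle (top) and high against low dose (bottom); circles are from all 54 libraries, squares from 52 without the libraries that stand apart, and filled symbols have an adjusted p under 0.05 (edgeR). Against vehicle, at least 11 of the 13 mRNAs lie above 0 in each extract, with the highest medians in Longan Arillus and Zizyphi Semen. High against low has filled symbols in Longan Arillus (circles) and in Schisandrae Fructus (MT-RNR1, square). Liriopis Tuber stands for Liriopis seu Ophiopogonis Tuber.

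Sets were then compared at the low dose of their extracts, each set by the mean of both. Between sets 9 and 8, 0 genes were called (0.0224% of all genes, 0 at unadjusted p under 0.05, 0 by DESeq2), and the median of the mRNAs was -0.002. From set 8 to set 10, 4 genes were called higher, beside 12.6% of all genes called higher: MT-ND3 at 0.62 (SE 0.178), MT-ND6 at 0.59 (SE 0.151), MT-ATP8 at 0.43 (SE 0.149) and MT-RNR1 at 0.36 (SE 0.0652). From set 9 to set 10, 5 were called higher, beside 13.9% of all genes called higher: MT-TQ at 1.81 (SE 0.515), MT-ND3 at 0.66 (SE 0.167), MT-ND6 at 0.63 (SE 0.141), MT-RNR1 at 0.38 (SE 0.0612), and MT-CO2 at 0.30 (SE 0.104). The call of MT-ND3 in both rested on Longan Arillus low replicate 3, without which its values were 0.23 and 0.27, and so did that of MT-TQ, then at 0.53. Against set 8, the calls of MT-ND3 and MT-ND6 were also lost without Soshiho-tang low replicate 3, and that of MT-ATP8 without any 1 of Yijin-tang low replicates 1 and 3, Soshiho-tang low replicate 3, Longan Arillus low replicate 2 and Zizyphi Semen low replicate 2.

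In 52 libraries, 9 genes were called higher from set 8 to set 10 and 9 from set 9 to set 10, beside 12.7 and 13.2% of all genes called higher. All 13 mRNAs then had positive values, with medians of 0.30 and 0.27. The count from set 8 to set 10 was 1 without Soshiho-tang low replicate 3 and 7 without Longan Arillus low replicate 3, and that from set 9 was 9 without Liriopis seu Ophiopogonis Tuber low replicate 3 and 8 without Longan Arillus low replicate 3. These contrasts compare different extracts as well as different sets, and the shares of all genes called were 22.5 and 24.5%, so the mitochondrially encoded genes moved amid many others.

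MT-RNR1 was the gene called most often against vehicle. It was singled out after its values were seen. In vehicle it measured 1638, 1596 and 1571 CPM. At the low dose it measured 1910, 2008 and 2002 CPM with Yijin-tang, 2123 and 2157 with Soshiho-tang, 1931, 1965 and 2066 with Liriopis seu Ophiopogonis Tuber and 2084, 1941 and 2151 with Schisandrae Fructus. In set 10 it measured 2603, 2644 and 3185 CPM with Longan Arillus and 2294, 2399 and 2618 CPM with Zizyphi Semen. No library of these 6 groups overlapped vehicle, but the share of all genes without such overlap was not computed. Without the 2 libraries, the log2 fold changes were 0.30, 0.42, 0.31, 0.36, 0.71 and 0.61 in that order, with adjusted p between 1.25e-07 and 0.0147. The vehicle libraries are common to all 6.

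In Schisandrae Fructus MT-RNR1 was low at the high dose. It measured 1828, 2161 and 2114 CPM at the medium dose and 1426, 1634 and 1576 CPM at the high dose, below every low-dose library and overlapping vehicle. The log2 fold change from low to high was -0.41 (SE 0.0865, adjusted p = 0.092) with all libraries and -0.41 (SE 0.0739, adjusted p = 0.00121) without the 2 that stood apart, and with DESeq2 the gene was called. MT-RNR2, the rRNA of the large mitochondrial ribosomal subunit, measured -0.24 (SE 0.133, adjusted p = 1) in the same contrast with all libraries and -0.24 (SE 0.076, adjusted p = 0.109) without the 2, and was not called. The ratio of MT-RNR1 to MT-RNR2 counts was 0.0573 to 0.0611 in vehicle and 0.0656 to 0.0823 in set 10 without the library that stood apart.

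The ratio of summed mRNA counts to summed rRNA counts does not depend on how many nuclear reads a library has. It was 2.96 to 3.08 in vehicle (3.02 ± 0.0616, SD, n = 3). In Zizyphi Semen it was 3.66 ± 0.201 at the low, 3.78 ± 0.157 at the medium and 4.13 ± 0.116 at the high dose, and the high libraries (4.01 to 4.23) lay above the low ones (3.51 to 3.89). In Schisandrae Fructus it was 3.11 ± 0.0361 at the low, 3.12 ± 0.103 at the medium and 3.42 ± 0.166 at the high dose, with the high libraries (3.24 to 3.56) above the low ones (3.07 to 3.14). There the mRNA share overlapped between the doses while the rRNA share was lower without overlap, at 2.88% of counts against 3.38%. In Soshiho-tang, with 2 libraries a dose, the ratio was lower at the high (2.95) than at the low dose (3.14) without overlap.

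Yijin-tang, Liriopis seu Ophiopogonis Tuber and Longan Arillus had overlapping ratios at the low and high dose. Of the variation in the log2 ratio, 62.52% lay between sets, 19.13% between groups of a set and 18.35% within groups over 54 libraries, and 61.3, 21.03 and 17.67% over 52, so the ratio moved little with the 2 libraries. For the rRNA share the part between sets was 5.41% over 54 and 24.22% over 52 libraries.

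**Figure D4:**
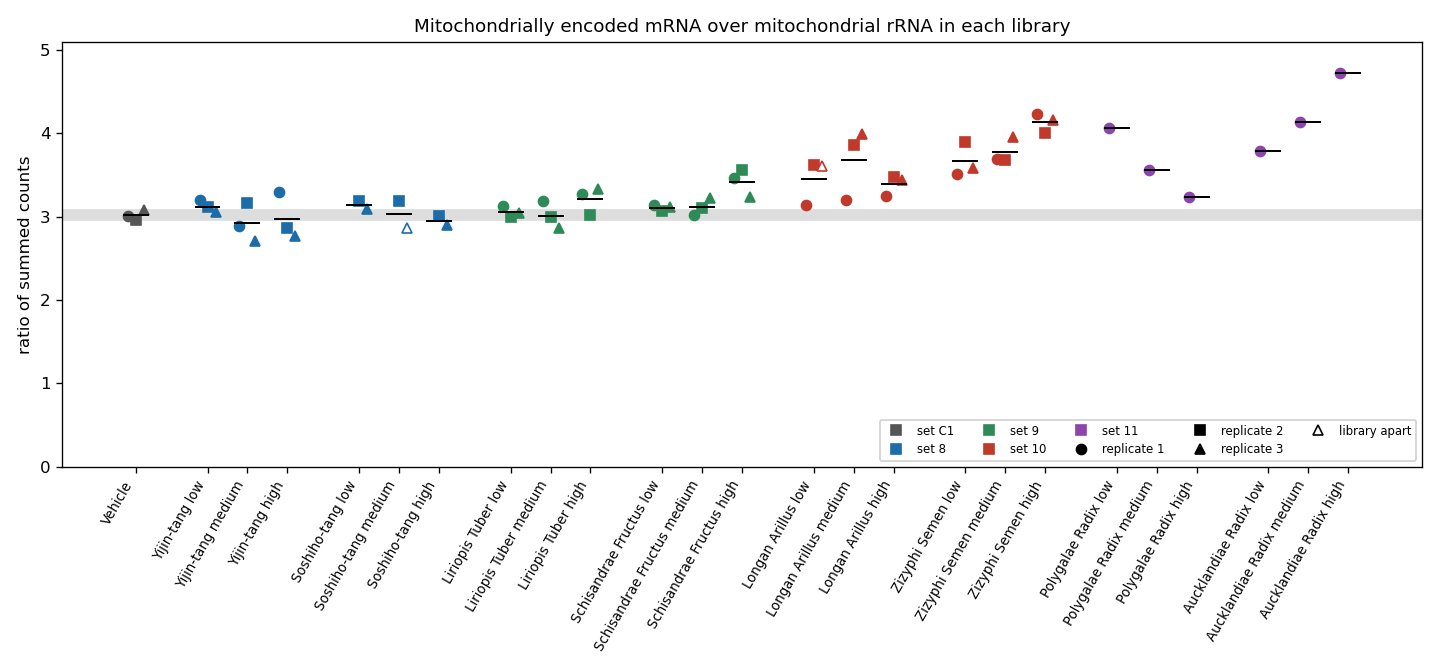
Ratio of summed mitochondrial mRNA counts to summed mitochondrial rRNA counts (no unit) in each library, by extract and dose; colours mark sets, shapes replicate numbers, bars group means and open markers the 2 libraries that stand apart. Vehicle lies at 2.96 to 3.08, Zizyphi Semen at 4.01 to 4.23 at the high dose, and the single libraries of Aucklandiae Radix reach 4.72; Liriopis Tuber stands for Liriopis seu Ophiopogonis Tuber.

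Set 11 had 1 library at each dose and no test, so its values describe these libraries. In Polygalae Radix the mRNA share was 12.98% at the low, 12.98% at the medium and 11.7% at the high dose. All 13 mRNAs had a lower CPM at the high than at the low dose (log2 ratio -0.72 to -0.19, median -0.54), among them MT-ND1 at 7064 against 11620 CPM and MT-ND4 at 11250 against 18480 CPM. MT-RNR1 stood at 2560 against 2465 CPM. The mRNA to rRNA ratio was 4.06, 3.56 and 3.23 from the low to the high dose. The TMM factor of the high-dose library was 1.26, the highest of all libraries, and it lowers every CPM of that library. In the same library the 10 epithelial and A549 genes summed to 3027 CPM, the lowest of set 11, against 10220 CPM at the medium and 15970 CPM at the low dose. The nuclear subunits of complex V summed to 969.6 CPM at the high and 2305 CPM at the low dose, and those of complex I to 945.8 and 1714 CPM. The RNAs without a poly(A) tail or kept in the nucleus summed to 2842 CPM at the high and 1306 CPM at the low dose. These shifts lay in the same single library, and their part in the lower mRNA values was not tested.

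In Aucklandiae Radix the mRNA share stayed between 12.04 and 12.5% and the rRNAs were lower with dose. MT-RNR1 measured 2381, 2064 and 1458 CPM at the low, medium and high dose, and the rRNA share was 3.30, 2.91 and 2.63%. Of the 13 mRNAs, 5 were higher and 8 lower at the high than at the low dose (median log2 ratio -0.05), with MT-CYB the most positive at 0.27 (8631 against 7162 CPM) and MT-ND3 the most negative at -0.40 (1106 against 1463 CPM). The mRNA to rRNA ratio was 3.78, 4.14 and 4.72, while it went the other way with dose in Polygalae Radix. The epithelial and A549 genes summed to 16340, 14620 and 10560 CPM from the low to the high dose, and their part in these values was not tested.

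Within the mitochondrial mRNA pool (all 13 mRNAs together as 100%), the composition stayed within narrow ranges. In the 58 libraries other than the 2 that stood apart, complex I mRNAs made up 33.38 to 38.98%, complex III 5.53 to 7.67%, complex IV 44.23 to 50.56% and complex V 8.84 to 10.83%. The short MT-ND4L was 1.66 to 1.82% of the pool in vehicle, above 1.17 to 1.51% in set 10 and 1.14 to 1.31% in set 11. Sets 8 (1.39 to 1.86%) and 9 (1.22 to 1.68%) overlapped vehicle. The ratio of MT-ND4L to MT-ND4, with which it shares the 7-base overlap printed above, was 0.1202 to 0.1363 in vehicle, 0.0833 to 0.112 in set 10 and 0.0813 to 0.1087 in set 11. In sets 8 (0.0916 to 0.1345) and 9 (0.0851 to 0.1218) this ratio overlapped vehicle. MT-ND4L was not called against vehicle in any of these contrasts at low dose, while MT-ND4 was called in Longan Arillus and Zizyphi Semen without the 2 libraries. The ratio of MT-ATP8 to MT-ATP6, the other printed pair, ranged from 0.1135 to 0.2048 with vehicle at 0.1273 to 0.1735.

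The 2 libraries that stood apart differed in this composition too. MT-ND3 made up 5.77% of the pool in Longan Arillus low replicate 3 and 2.41% in Soshiho-tang medium replicate 3, against 0.9 to 1.3% in the other 58. MT-ND4L made up 0.44 and 0.59%, against 1.14 to 1.86%, and MT-ND4 made up 6.79 and 11.43%, against 12.04 to 16.32%. In CPM, MT-ND3 measured 4218 in Longan Arillus low replicate 3 against 1337 and 1418 in the other libraries of its group, whereas MT-ND4 measured 4967 against 18080 and 18540. MT-ND6 measured 1892 CPM against 1007 and 1310, and its ratio to MT-ND5 was 0.504, against 0.1319 to 0.2362 in the other 58 libraries. MT-TQ measured 6.11 CPM there, against 0.322 and 0.417. The calls of MT-ND3, MT-TQ and MT-TS1 in Longan Arillus rested on that library.

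Nuclear genes of the same complexes were mostly not called, or called lower, where the mitochondrial mRNAs were called higher, with Longan Arillus over all libraries as the exception. Of 75 tested nuclear subunits of complexes I, III, IV and V, 0 were called higher and 3 lower at the low dose of Zizyphi Semen against vehicle (median log2 fold change -0.14), beside 2.58% of all genes called lower. Without the 2 libraries, 1 was higher and 37 lower in Zizyphi Semen (median -0.14), 2 were higher and 33 lower in Longan Arillus (median -0.15), and 0 were higher and 21 lower in Schisandrae Fructus (median -0.11), whereas 13, 13 and 2 mitochondrially encoded genes were called higher in the same contrasts. Of all genes, 14.6, 13.9 and 3.98% were called lower in those 3 contrasts. With all libraries, 49 of the 75 were called higher in Longan Arillus, beside 21.5% of all genes called higher. From low to high dose 58 were called lower there, beside 15% of all genes called lower. Without the 2 libraries this count was 0, beside 0.0878% of all genes called. From low to high dose, 0 of the 75 were called in the other 5 extracts with all libraries, where 0 to 1.58% of all genes were called. Without the 2 libraries 2 were called lower in Soshiho-tang and 2 higher in Schisandrae Fructus. Of all genes, 9.51 and 1.54% were called in those 2 contrasts, in either direction. These subunit lists were not tested as sets.

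Nuclear genes that act on mitochondrial DNA or RNA were listed in the same way. Of 16 tested genes of mitochondrial DNA transcription and replication (such as POLRMT, the mitochondrial RNA polymerase, and TFAM, which packages the DNA), 0 were called at the low dose of Zizyphi Semen against vehicle (median -0.04). In 52 libraries 1 was higher and 3 were lower. Of 25 genes of mitochondrial RNA processing and stability, 0 were called (median -0.05), and 0 higher and 3 lower without the 2 libraries. Of all genes in this contrast, 3.41% were called higher and 2.58% lower with all libraries. Without the 2, the shares were 12.1 and 14.6%. In Longan Arillus at the low dose, these lists had 2 higher and 4 lower, and 5 higher and 7 lower, with all libraries, and 0 higher and 3 lower, and 1 higher and 4 lower, without the 2. Of all genes there, 21.5% were called higher with all libraries, and 11.2% higher and 13.9% lower without the 2. From low to high dose outside Longan Arillus, the genes of these lists called with all libraries were TOP1MT, the mitochondrial topoisomerase, at 0.26 (SE 0.0601, adjusted p = 0.0118) and FASTKD5, needed for maturation of mRNAs that lack flanking tRNAs, at -0.36 (SE 0.0808, adjusted p = 0.00965), both in Soshiho-tang. In 52 libraries Soshiho-tang had 1 of 16 called higher and 6 of 25 called lower, beside 9.51% of all genes called, and 0 of either list were called from low to high dose in the other 5 extracts.

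Some other RNAs also differed between sets. RNAs without a poly(A) tail or kept in the nucleus (10 genes of the list matched, among them MALAT1 and NEAT1) summed to 881 to 905 CPM in vehicle, 840 to 994 in set 8, 876 to 1124 in set 9, 941 to 1686 in set 10 and 1306 to 2842 in set 11 without the 2 libraries, which had 2238 and 13300 CPM. MALAT1 alone measured 584 to 590 CPM in vehicle and 588 to 1089 CPM in set 10. NEAT1 measured 284.3 to 306 and 345.5 to 600.2 CPM, so MALAT1 and NEAT1 made up most of both sums. Other members were far lower and did not move together. The medians of RN7SL1 were 5.29 CPM in vehicle and 12.39 in set 10, and those of RN7SL2 4.529 and 13.93. Those of RMRP were 0.2455 and 0.1018 CPM, and those of RPPH1 0.3091 and 0.1701. Nuclear copies of mitochondrial DNA (11 genes of the list matched), with which the mitochondrially encoded genes can share reads, summed to 1519 to 1632 CPM in vehicle and 2117 to 3251 CPM in set 10, most of it from MTATP6P1. At the low dose of Zizyphi Semen against vehicle, 3 of 9 tested copies were called higher (median 0.90) and 1 of 9 tested RNAs of the first list was called higher (median 0.44). Both counts are from all 54 libraries, where 3.41% of all genes were called higher. These lists were not tested as sets. The slope on gene length was -0.01 to 0.01 in vehicle and -0.09 to 0.02 in set 10. The part of these differences in the mitochondrial share was not tested.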

How the data were processed

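The deposited table held expected counts per gene, which the authors made from 100 bp read pairs of directional mRNA libraries, per the labels' protocols and with no scaling for depth or length. RSEM 1.3.3 and STAR 2.7.3a, with Trim Galore 0.6.5 and FastQC 0.11.9, are listed in the submitters' processing notes, as is hg38. Which annotation release and strand setting were used is not given in the sources used here. RSEM shares reads between similar copies, and 10.485% of values were not whole.

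Expected counts were rounded. In edgeR 4.0.16 (R 4.3.3), the 54 libraries of 19 replicated groups were fitted together (quasi-likelihood F test, TMM factors, filterByExpr by group, robust dispersion), and 17826 genes passed the filter. Contrasts were high and medium against low dose, low and high dose against vehicle, sets at the low dose, and the difference of dose effects within sets, 30 in all, each adjusted by Benjamini-Hochberg. All printed adjusted p are from this fit or its repeat without the 2 libraries that stood apart, which was an alternative chosen with their values known. CPM values used TMM factors over 60 libraries; shares used raw counts. Errors are SDs over libraries or SEs of log2 fold changes. Of the identifiers, 56558 had a symbol and 57055 were in GENCODE 29, the source of coordinates and sequences. For each of 51 pairs of libraries in 1 group, counts differed beyond sampling noise (chi-square over its degrees of freedom at least 1.822). The fit was tested on simulated data.

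Named genes were at most 4 called members per contrast with the largest change; where none was called within a set, the 2 mRNAs with the smallest p; and at most 4 called genes per nuclear list from low to high dose. Genes named outside this rule were chosen after their values were seen. The members and lists were chosen with earlier results of these data known. Alternatives were DESeq2 1.42.0, RLE factors, scaling by nuclear genes, no filter, replicate blocks, each set alone and single libraries left out. Same-numbered libraries of Zizyphi Semen deviated together at the low and medium dose (correlations 0.21 to 0.306); in the other 11 dose contrasts at least 1 pair was at or under 0.1.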

Additional observations from a re-analysis of the deposited data

How the results depend on the processing

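Without the 2 libraries that stood apart, counts of mitochondrially encoded genes called moved to 1 for Schisandrae Fructus high against low, 0 for Longan Arillus high and medium against low, 1 each for the low doses of Yijin-tang, Soshiho-tang and Liriopis seu Ophiopogonis Tuber against vehicle, 2 for low Schisandrae Fructus and 13 for low Zizyphi Semen against vehicle. For the high doses against vehicle they moved to 5 (Soshiho-tang), 8 (Liriopis seu Ophiopogonis Tuber) and 11 (Longan Arillus), for set 10 against sets 8 and 9 to 9 and 9, and for the difference of Liriopis seu Ophiopogonis Tuber and Schisandrae Fructus to 1. The log2 ratio of the mean mRNA share of Longan Arillus, high over low, became -0.14. DESeq2 gave 1 for Schisandrae Fructus high against low, 1 each for low Soshiho-tang and Liriopis seu Ophiopogonis Tuber and 2 for high Liriopis seu Ophiopogonis Tuber against vehicle, and 8 for set 10 against set 9. With no filter on low counts, the counts were 1 for Longan Arillus medium against low, and against vehicle 0 (low Schisandrae Fructus), 4 (low Zizyphi Semen), 1 (high Soshiho-tang), 1 (high Longan Arillus) and 6 (high Zizyphi Semen). RLE factors and scaling by nuclear genes moved no count by over 1.5 times and reversed no named gene. The cause was not tested in any of these.

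The replicate number gave 1 call for Schisandrae Fructus high against low as a block over all sets and as a block within the set. No other count of the 54-library fit moved by over the factor given above for RLE factors, though smaller changes are not excluded. Each set fitted alone gave 1 for Schisandrae Fructus high against low, and 0 and 0 for Longan Arillus high and medium against low. The block within sets without the 2 libraries, chosen after seeing the data, gave 1, 1 and 0 for these 3 contrasts and 1 for the difference of Liriopis seu Ophiopogonis Tuber and Schisandrae Fructus, and sets alone without the 2 libraries gave 0 and 0 for Longan Arillus. In Soshiho-tang medium against low, with a same-number correlation of -0.185, the crossed pairing called 0 genes. For MT-TQ in Longan Arillus medium against low the direction reversed without the 2 libraries, to 0.57, 0.40 (with the replicate block) and 0.56 (set alone).

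With single libraries left out, the calls ranged from 0 to 5 (Longan Arillus high against low), 0 to 11 (Longan Arillus medium against low, where 11 without low replicate 2 had more genes higher than lower), 0 to 4 (Soshiho-tang medium against low) and 0 to 3 (Longan Arillus minus Zizyphi Semen). Against vehicle they ranged from 0 to 0 (low Schisandrae Fructus), 8 to 13 (low Longan Arillus), 2 to 6 (low Zizyphi Semen), 0 to 1 (high Soshiho-tang), 0 to 1 (high Liriopis seu Ophiopogonis Tuber), 0 to 3 (high Longan Arillus) and 3 to 10 (high Zizyphi Semen), and for set 10 from 1 to 7 (against set 8) and 4 to 9 (against set 9). MT-TQ in Longan Arillus medium against low ranged from -2.54 to 0.57, and the log2 ratio of the mean share of Longan Arillus from -0.14 to 0.27. Where this leaves 1 library in a group, that library is assumed to vary like the others. Depth limits the tRNAs, with at most 231 counts in all per library, and the 3 vehicle libraries limit every contrast with vehicle.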
